A study of Mus musculus with 18 samples.

Results

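Macrophages of the mouse knee synovium were sorted into LYVE1+CX3CR1+ cells, of the type that covers the joint lining, and MHCII+CD11c- cells, of the interstitial type, and their transcriptomes were compared without any treatment. The comparison held the 3 LYVE1+CX3CR1+ libraries and the 3 MHCII+CD11c- libraries whose titles mark them as healthy, which is 6 of the 18 libraries in all. The other libraries held MHCII+CD11c+ macrophages, also untreated, and the same 3 subsets taken 8 h after mice were injected intravenously with immune complexes (ICs) of ovalbumin and rabbit antibody. All mice were adult C57BL/6 animals with no transgene named in the labels, and the 6 libraries compared were labelled as controls. Each library was made from sorted cells of 6 legs pooled from 3 mice, so that the spread between the libraries of a group is a spread between pools. LYVE1+CX3CR1+ cells were gated as negative for MHC class II and Ly6C and positive for LYVE1 and CX3CR1, and the other cells as positive for class II and negative for CD11c. RNA levels of these proteins therefore check the labels and are not findings.

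A thin layer of macrophages and fibroblasts borders the joint cavity, and the macrophages of this lining are long-lived resident cells known for a barrier made of cell junctions and for taking up debris and dying cells. Macrophages deeper in the tissue carry MHC class II molecules, which display peptides to CD4+ T cells, and many of them are replenished by blood monocytes. Interleukin-4 and interleukin-13 drive a further set of macrophage genes, with Retnla and the lectin gene Mgl2 among the best known.

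Reads per gene came to between 1509070 and 1801039 in the LYVE1+CX3CR1+ libraries and between 837439 and 985186 in the MHCII+CD11c- libraries. Levels are given as CPM (counts scaled to a library of common size) after TMM scaling, a correction of library totals for composition, and since CPM does not divide by gene length no gene is compared with another by level. The transcripts of the ribosomal RNA precursor gene Rn45s took 8.59% to 15.2% of the counts of the 6 libraries. In bulk RNA a lower level may come from fewer cells that hold a transcript or from less of it per cell, which cannot be told apart. A floor of 3 counts corresponds to 1.61 to 2.02 CPM in the LYVE1+CX3CR1+ libraries and to 3.07 to 3.67 CPM in the shallower MHCII+CD11c- libraries.

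The sort was visible in the RNA. Lyve1, which codes for a hyaluronan receptor (chromosome 7, 110850607 to 110862953 in GRCm38), stood at 2171, 2382 and 2563 CPM in the LYVE1+CX3CR1+ libraries and at 702, 806 and 882 CPM in the MHCII+CD11c- libraries. The fractalkine receptor gene Cx3cr1 stood at 830, 708 and 779 CPM against 270, 291 and 275 CPM. Both transcripts were lower but present in MHCII+CD11c- cells. H2-Ab1, the beta chain of the class II molecule I-A (chromosome 17, 34263227 to 34269418), stood at 20.2, 20.1 and 20.5 CPM in LYVE1+CX3CR1+ cells and at 4745, 4585 and 4548 CPM in the others. Itgax, which codes for CD11c, was near 0 in both groups, at 4.04, 0 and 1.08 CPM against 2.33, 2.44 and 13.3 CPM, and at 304, 240 and 265 CPM in the untreated MHCII+CD11c+ libraries. The Ly6C gene Ly6c2 had no count in the LYVE1+CX3CR1+ libraries and stood at 12.8, 6.11 and 3.06 CPM in the others.

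Vsig4, a complement receptor of resident macrophages (chromosome X, 96247201 to 96293438), was not used in the sort. It stood at 1800, 1314 and 1516 CPM in the LYVE1+CX3CR1+ libraries and at 302, 219 and 240 CPM in the MHCII+CD11c- libraries. The groups lay far apart, and Vsig4 was 6.08-fold higher in LYVE1+CX3CR1+ cells, a log2 fold change of 2.60 ± 0.22 (SE, n = 3 libraries a group, adjusted p = 4.91e-09 by the quasi-likelihood test of edgeR, adjusted after Benjamini and Hochberg over all genes tested). Of 19 pan-macrophage genes tested, 2 were higher in LYVE1+CX3CR1+ cells (Ctss and Cd33) and 2 lower (Mrc1 and Cybb), and 15 did not pass the test. Of these calls those of Cd33 (adjusted p up to 0.209) and Mrc1 (adjusted p up to 0.0867) were each lost without any 1 of at least 3 libraries. That of Cybb was lost without LYVE1+CX3CR1+ replicate 2 (adjusted p = 0.0564). Adgre1, which codes for F4/80, averaged 858 ± 56.3 CPM in LYVE1+CX3CR1+ cells and 761 ± 28.9 CPM in MHCII+CD11c- cells (SD, n = 3), a log2 difference of 0.17 ± 0.14 (SE). Csf1r, the receptor of the macrophage growth factor, averaged 3233 ± 80.6 CPM against 2504 ± 245 CPM, a log2 difference of 0.37 ± 0.22 (SE).

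**Figure D1:**
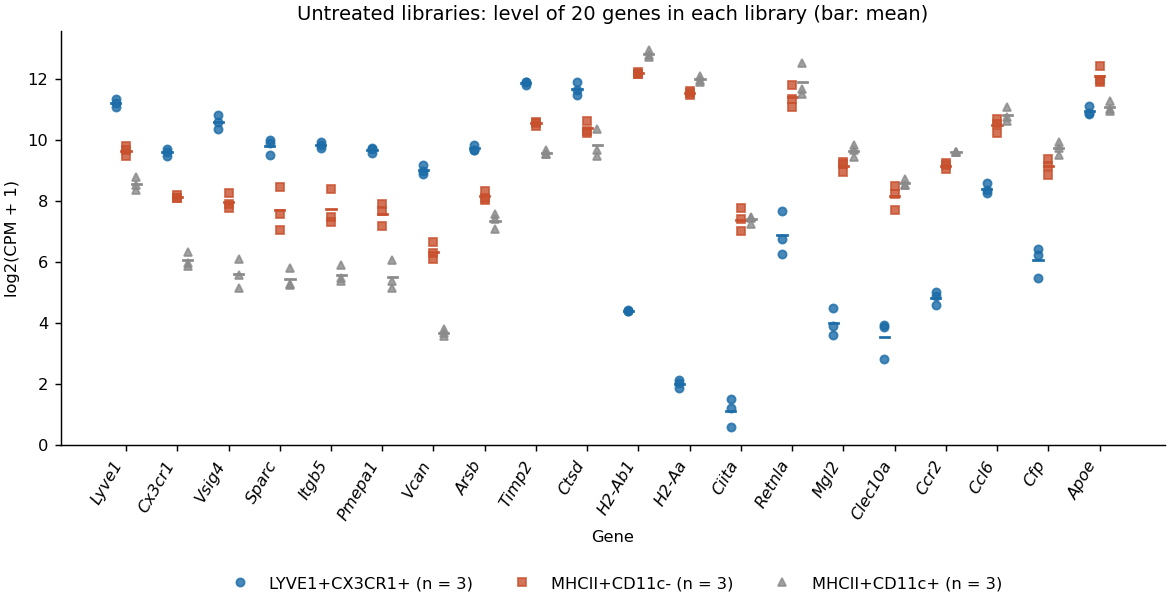
Level of 20 genes in each untreated library, as log2(CPM + 1). Each symbol is 1 library and each bar the mean of 3, with LYVE1+CX3CR1+ in circles, MHCII+CD11c- in squares and MHCII+CD11c+ in triangles, and for Vsig4 the circles lie between 1314 and 1800 CPM and the squares between 219 and 302 CPM.

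Across the transcriptome, 1207 of 10550 genes tested differed between the untreated subsets at an adjusted p under 0.05, with 456 genes (4.32%) higher in LYVE1+CX3CR1+ cells and 751 (7.12%) lower. The median log2 fold change over all genes tested was -0.019, a value that TMM scaling itself holds near 0. The groups did not overlap for 1169 of the 1207 genes, against 28.9% of all genes tested. Differences of at least 2-fold were fitted for 253 of the higher and 555 of the lower genes. For 169 of the lower genes no LYVE1+CX3CR1+ library had more than 3 counts, and the fitted fold of such a gene is not a bound. The reverse, with no more than 3 counts in any MHCII+CD11c- library, held for 13 of the higher genes. When each of the 6 libraries was left out in turn, 205 of the higher genes (45%) and 383 of the lower genes (51%) passed the test every time. The direction held every time for 456 and 745 of them. Named genes whose call was lost when a library was left out are given as such below, with the highest adjusted p by the same test among those fits.

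**Figure D2:**
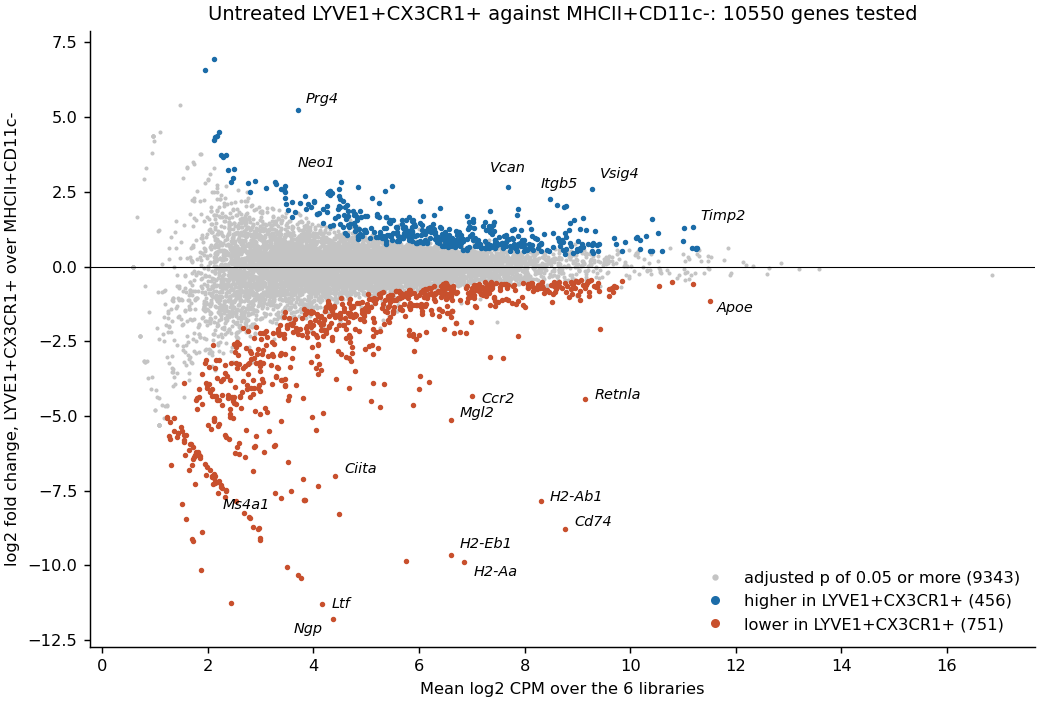
Log2 fold change of LYVE1+CX3CR1+ over MHCII+CD11c- macrophages (vertical axis) against the mean log2 CPM over the 6 untreated libraries (horizontal axis), with 1 point for each of 10550 genes. Blue points mark the 456 genes called higher and orange points the 751 called lower, and the class II genes H2-Ab1, H2-Aa, H2-Eb1 and Cd74 lie at log2 fold changes of -7.83, -9.88, -9.67 and -8.80, while fitted values of genes without counts in a group depend on the prior count.

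Among the genes with the largest folds towards LYVE1+CX3CR1+ cells, Vcan, which codes for the matrix proteoglycan versican (chromosome 13, 89655309 to 89743027), stood at 469, 501 and 582 CPM against 67.4, 77.0 and 99.1 CPM, a 6.35-fold difference (log2 2.67 ± 0.22, SE). Neo1, the guidance and BMP co-receptor neogenin, stood at 86.9, 55.2 and 75.4 CPM against 15.1, 0 and 14.3 CPM. Chst1, a keratan sulphate sulphotransferase gene, stood at 102, 119 and 139 CPM against 17.4, 6.11 and 30.6 CPM. The leading genes were chosen with groups that do not overlap, so the separation is given by the choice. The calcium channel gene Cacna1a and the synaptic vesicle gene Syngr1 were 6.10-fold and 5.76-fold higher, and the axon guidance gene Sema6a also led the list. The remaining 13 of the 20 leading symbols were gene models of the protocadherin-gamma cluster on chromosome 18. These models share their 3' exons and had nearly the same counts, so that the reads of 1 locus were counted under many names, and 25 of the 26 symbols tested from this locus were called higher. They are treated as 1 uncertain locus, and the 456 higher genes are 431 without it.

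Genes high in both number of reads and difference included Timp2, Ctsd, Emp1, Stab1, Tns1, Sulf2 and Itgb5, beside Lyve1 and Vsig4. Timp2, an inhibitor of matrix metalloproteinases, stood at 3818, 3761 and 3520 CPM against 1501, 1406 and 1542 CPM. Its log2 fold change was 1.32 ± 0.18 (SE, edgeR adjusted p = 1.72e-05). Emp1, an epithelial membrane protein gene, averaged 2201 ± 31.8 CPM against 1002 ± 74.0 CPM (SD, n = 3), and Tns1, which codes for tensin at focal adhesions, 1590 ± 61.8 CPM against 793 ± 28.3 CPM. Sulf2, which trims sulphate groups from heparan sulphate, averaged 986 ± 21.2 CPM against 428 ± 57.6 CPM. The spread of the libraries within each group was small beside these differences. Olfml3, a secreted olfactomedin-family gene that the ranking by fold reaches once the protocadherin locus counts only once, was chosen after its values were seen and stood at 876, 690 and 801 CPM against 155, 134 and 202 CPM.

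Of 29 tested members of a list of resident lining macrophage genes, 13 were higher in LYVE1+CX3CR1+ cells and 4 lower, with a median log2 fold change of 0.471. The list holds the sort genes Lyve1 and Cx3cr1. Sparc, a collagen-binding matricellular gene, stood at 1013, 954 and 719 CPM against 351, 132 and 191 CPM. Timd4, the phosphatidylserine receptor TIM-4 of long-lived resident macrophages, stood at 122, 137 and 160 CPM against 22.1, 84.3 and 60.3 CPM. Trem2, a lipid-sensing receptor gene, stood at 297, 281 and 241 CPM against 93.0, 100 and 119 CPM. All 3 were higher in every LYVE1+CX3CR1+ library than in any MHCII+CD11c- library. Folr2, a folate receptor gene, differed less, by 1.67-fold. Aqp1, a water channel gene, varied among the LYVE1+CX3CR1+ libraries (633, 1191 and 837 CPM) but lay above the MHCII+CD11c- libraries (372, 423 and 357 CPM). The list was not uniform. The lectin genes Cd209f and Cd209g, the sialic acid receptor gene Siglec1 and the endothelin receptor gene Ednrb were lower in LYVE1+CX3CR1+ cells, with Cd209f at 7.41, 29.5 and 18.8 CPM against 226, 304 and 189 CPM. The Ednrb call was lost without any 1 of 3 libraries (adjusted p up to 0.0933), and that of Stab1, also on the list, without MHCII+CD11c- replicate 1 (adjusted p = 0.0687).

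**Figure D3:**
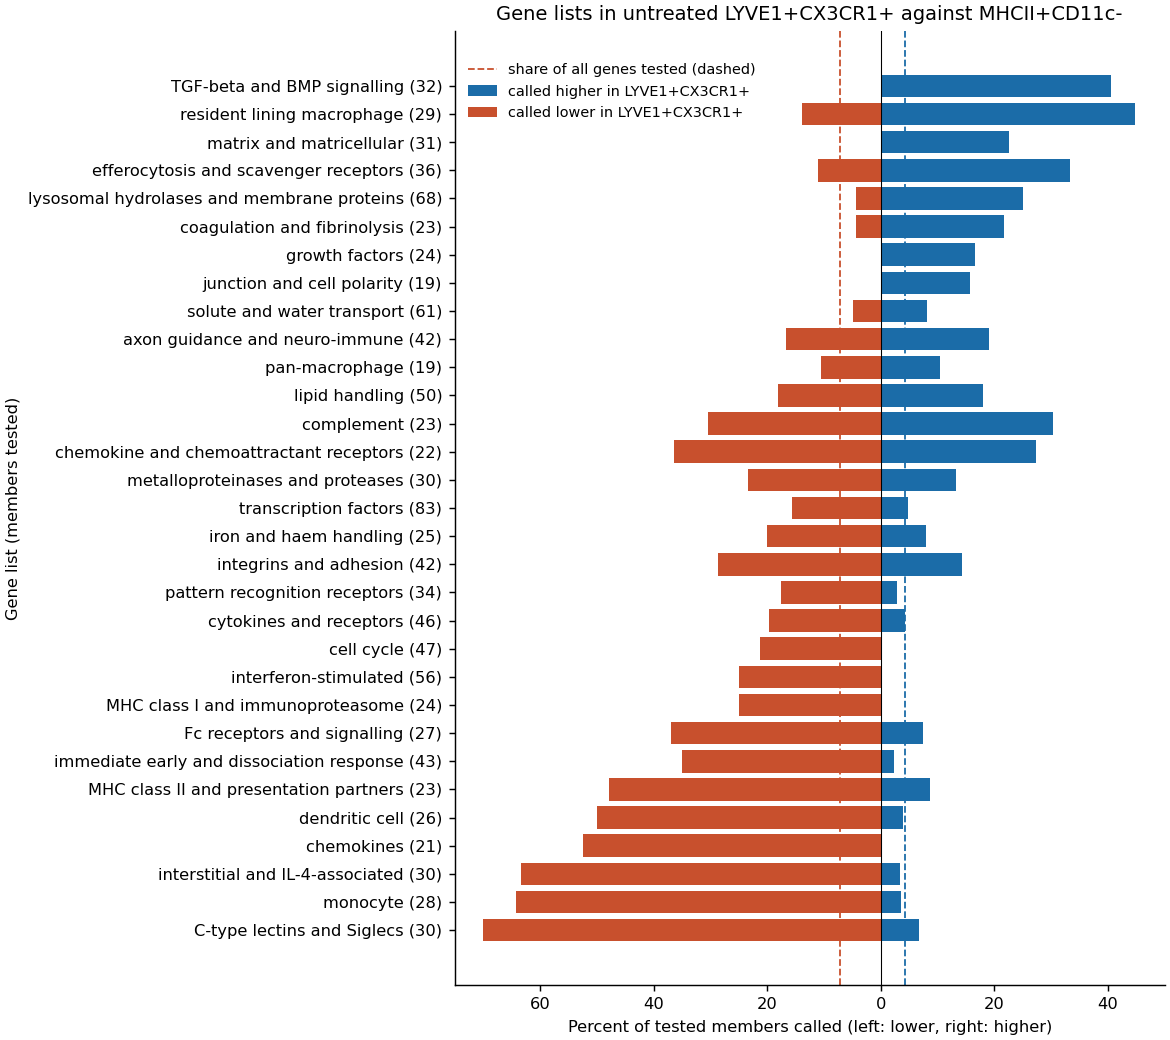
Share of the tested members of each gene list called higher (blue bars, to the right) or lower (orange bars, to the left) in untreated LYVE1+CX3CR1+ than in MHCII+CD11c- macrophages, in percent, with the number tested in brackets. Dashed lines give the shares of all genes tested, 4.32% higher and 7.12% lower, and 40.6% of the TGF-beta and BMP list was called higher and 70% of the C-type lectin and Siglec list lower.

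Genes of TGF-beta and BMP signalling, a pathway that controls matrix production and tissue residence of macrophages, differed in a single direction. Of 32 tested, 13 were higher in LYVE1+CX3CR1+ cells and none lower, with 19 not called and a median log2 fold change of 0.497. Among receptors, Tgfbr1, a signalling receptor of TGF-beta, stood at 243, 241 and 291 CPM against 87.2, 121 and 130 CPM. The BMP receptor genes Bmpr1a and Bmpr2 were also higher, Bmpr1a at 18.2, 21.3 and 22.6 CPM against 5.81, 2.44 and 4.09 CPM. Among integrins that can free TGF-beta from its latent complex, Itgb5 stood at 975, 856 and 915 CPM against 178, 159 and 335 CPM, and its partner Itgav at 496, 382 and 412 CPM against 183, 144 and 212 CPM. Itgb5 was thus 4.07-fold higher (log2 2.02 ± 0.24, SE, edgeR adjusted p = 2.04e-06). Genes known as targets and feedback inhibitors rose with them. Pmepa1, an inhibitor of SMAD signalling, stood at 823, 759 and 839 CPM against 202, 145 and 237 CPM. The inhibitors Skil, Ski, Smurf2 and Ldlrad4, the BMP target Id3 and the ligand gene Bmp2 were higher by log2 values between 0.83 and 1.22. The calls of Bmpr1a, Bmpr2, Bmp2, Id3 and Ldlrad4 were each lost without any 1 of at least 3 of the 6 libraries (adjusted p up to 0.157).

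Of 31 matrix and matricellular genes tested, 7 were higher in LYVE1+CX3CR1+ cells, none lower, and 24 did not pass. The median log2 fold change was 0.223, and it was -0.117 without LYVE1+CX3CR1+ replicate 1 and 0.00765 without MHCII+CD11c- replicate 3. Beside Vcan, Sparc and Timp2 these were Fbln5, an elastic fibre gene, the laminin genes Lamb2 and Lama3, and Prg4. Fbln5 averaged 50.1 ± 18.1 CPM against 13.8 ± 4.96 CPM and Lamb2 42.1 ± 4.62 CPM against 16.5 ± 4.28 CPM (SD, n = 3). The Prg4 call rested on 1 library, since this lubricin gene of lining fibroblasts stood at 601, 5.64 and 7.54 CPM against 0, 9.78 and 6.13 CPM and the groups overlapped. Without LYVE1+CX3CR1+ replicate 1 its log2 fold change was 0.32 (adjusted p = 0.919). The calls of Lama3 and Lamb2 were lost whichever library was left out (adjusted p up to 0.155), and that of Fbln5 without LYVE1+CX3CR1+ replicate 1 or MHCII+CD11c- replicate 3 (adjusted p up to 0.0614). Of 19 junction and polarity genes tested, 3 were higher, none lower, and 16 did not pass. F11r, which codes for the tight junction molecule JAM-A, stood at 282, 238 and 253 CPM against 94.2, 66.0 and 112 CPM, a 2.82-fold difference. The other called genes were the planar polarity gene Vangl1 and Pcdhgc3 of the protocadherin locus. The Vangl1 call was lost without any 1 of 4 libraries (adjusted p up to 0.115) and that of Pcdhgc3 without MHCII+CD11c- replicate 3 (adjusted p = 0.0521). Tjp1, which codes for the tight junction scaffold ZO-1, averaged 26.5 ± 3.0 CPM against 17.2 ± 4.93 CPM, a log2 difference of 0.62 ± 0.59 (SE) that did not pass. Of 24 growth factor genes, 4 were higher, among them Pdgfb and Pdgfc, which code for fibroblast mitogens, and none lower. The Pdgfb call was lost without any 1 of 4 libraries (adjusted p up to 0.173).

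Uptake receptors and their bridging proteins made up a further group. Of 36 genes for efferocytosis and scavenging tested, 12 were higher in LYVE1+CX3CR1+ cells and 4 lower, with a median log2 fold change of 0.32. Besides Timd4, Trem2, Itgav and Itgb5 the higher ones included Havcr2, which codes for TIM-3, at 146, 120 and 151 CPM against 34.9, 51.3 and 39.8 CPM. The collectin scavenger receptor gene Colec12 stood at 280, 268 and 222 CPM against 81.4, 111 and 107 CPM. Stab1, the scavenger receptor stabilin-1, stood at 2078, 1615 and 1797 CPM against 560, 1110 and 1060 CPM. Gas6, which bridges phosphatidylserine to TAM receptors, averaged 812 ± 90.4 CPM against 498 ± 189 CPM (SD, n = 3). The receptors themselves did not pass, Mertk at 108 ± 28 CPM against 87.1 ± 26.7 CPM and Axl at 246 ± 46.2 CPM against 310 ± 44.3 CPM. The mannose receptor gene Mrc1 was 1.56-fold lower in LYVE1+CX3CR1+ cells, and the other lower genes were Cd300lb, Cd300ld and Itgb3. The calls of Gas6, Mrc1, Cd300lb, Cd300ld and Itgb3 were each lost without any 1 of at least 3 libraries (adjusted p up to 0.242), and that of Stab1 without MHCII+CD11c- replicate 1.

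Complement genes split into 7 higher and 7 lower of 23 tested. On the side of recognition, C1qa and C1qc, chains of the C1q molecule, were each higher, C1qa at 3066 ± 99.3 CPM against 1999 ± 23.8 CPM (SD, n = 3). The anaphylatoxin receptor genes C3ar1 and C5ar1 were 1.65-fold and 1.68-fold higher. On the side of the alternative pathway the difference ran the other way. Cfp, which codes for properdin, stood at 43.8, 85.9 and 74.3 CPM against 664, 567 and 465 CPM, and C3, the central component, at 1.35, 1.25 and 5.38 CPM against 73.2, 31.8 and 30.6 CPM. Factor B (Cfb) and C4b were also lower, by 4.28-fold and 1.88-fold. The LYVE1+CX3CR1+ libraries thus held more transcripts of C1q and fewer of C3, properdin and factor B.

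Of 68 lysosomal hydrolase and membrane protein genes tested, 17 were higher in LYVE1+CX3CR1+ cells and 3 lower, and 48 did not pass, with a median log2 fold change of 0.417. Arsb, an arylsulphatase that degrades dermatan sulphate, stood at 916, 811 and 817 CPM against 276, 262 and 317 CPM (log2 1.57 ± 0.22, SE, edgeR adjusted p = 2.11e-05). Ctsd, which codes for the protease cathepsin D, stood at 3770, 2847 and 3155 CPM against 1561, 1258 and 1185 CPM. The galactosylceramidase gene Galc, the membrane protein genes Lamp2 and Cd63 and the legumain gene Lgmn were also called, by 1.42-fold to 2.68-fold. The lower ones were Ctsh, Ctsc and Gm2a, with Ctsh at 144, 143 and 142 CPM against 278, 375 and 338 CPM. The Lgmn call was lost without any 1 of 4 libraries (adjusted p up to 0.195) and that of Ctsc without LYVE1+CX3CR1+ replicate 1 (adjusted p = 0.0502). The promoter of Ctsd is shown because its gene differed and because it holds the letters CACGTG, the E-box core that factors of the TFEB family can bind. The 150 bases before its start (RefSeq, GRCm38.p6, chr7:142387828-142387977, minus strand) carry these letters, in capitals, 98 bases before the start.
Ctsd promoter: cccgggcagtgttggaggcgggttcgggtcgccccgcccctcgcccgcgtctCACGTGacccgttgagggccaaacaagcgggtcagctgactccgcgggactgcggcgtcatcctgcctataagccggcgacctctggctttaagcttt

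CACGTG reads the same on both strands. Within 250 bases before the start it occurred in 26.4% of the 53 lysosomal genes with a promoter sequence, in 10.3% of the 8012 tested genes with one and in 6.86% of all 27025 symbols of the promoter table. Among the lysosomal genes called higher it occurred in 2 of 15, Ctsd and Lgmn, and among all genes called higher in 7.17% of 321.

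Of 50 lipid genes tested, 9 were higher in LYVE1+CX3CR1+ cells and 9 lower, with a median log2 fold change of 0.0137. Alox5, which makes leukotriene A4, and Alox5ap, which codes for its activating protein, were higher. They averaged 545 ± 29.4 CPM against 309 ± 8.59 CPM and 502 ± 4.03 CPM against 373 ± 34.9 CPM (SD, n = 3). Ltc4s, which turns leukotriene A4 into leukotriene C4, stood at 162, 93.4 and 107 CPM against 33.7, 46.5 and 32.7 CPM. Hpgds, which makes prostaglandin D2, stood at 93.0, 89.6 and 108 CPM against 24.4, 48.9 and 35.8 CPM, and Hpgd, which inactivates prostaglandins, was 2.02-fold higher. Ptgs1, the cyclooxygenase COX-1, ran the other way at 8.09, 9.40 and 7.0 CPM against 52.3, 31.8 and 42.9 CPM. The lower genes included the lipoprotein lipase gene Lpl, by 4.66-fold, and the desaturase gene Scd1, by 14.9-fold. The fatty acid binding protein gene Fabp5 stood at 0, 6.90 and 0 CPM against 16.3, 19.6 and 14.3 CPM, and its log2 fold change of -2.84 was -7.46 without LYVE1+CX3CR1+ replicate 2 and -2.19 without replicate 3. Apoe, which codes for the apolipoprotein of cholesterol export, stood at 2219, 1837 and 1862 CPM against 3969, 5453 and 3751 CPM, a 2.23-fold lower level. The calls of Alox5ap (whichever library was left out, adjusted p up to 0.176), Apoe (without any 1 of 3 libraries, adjusted p up to 0.0886) and Hpgds (without MHCII+CD11c- replicate 1, adjusted p = 0.0638) were lost in such fits.

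Nerve-related and purinergic receptor genes also differed, 8 higher and 7 lower of 42 tested. Calcrl, the core of the receptor for the sensory peptide CGRP, stood at 117, 90.9 and 89.9 CPM against 59.3, 39.1 and 42.9 CPM. Ramp1, the subunit that makes this receptor bind CGRP, ran the other way, at 2.02, 4.39 and 1.08 CPM against 37.2, 23.2 and 17.4 CPM. The 2 subunits thus differed in opposite directions, Calcrl 2.11-fold higher and Ramp1 10.2-fold lower in LYVE1+CX3CR1+ cells. The log2 fold change of Ramp1, -3.35, was -4.01 without LYVE1+CX3CR1+ replicate 2. The ADP receptor genes P2ry12 and P2ry13, which microglia also express, and the UDP receptor gene P2ry6 were higher, P2ry13 at 78.2, 76.5 and 69.5 CPM against 17.4, 17.1 and 44.9 CPM. The semaphorin genes Sema6a and Sema6d and the receptor gene Plxna4 were higher, whereas Sema4a, Sema4b and Sema4d were lower, Sema4a at 55.9, 49.5 and 56.0 CPM against 151, 199 and 168 CPM. The calls of Calcrl and Sema4b were each lost without any 1 of 2 libraries (adjusted p up to 0.0611 and 0.162), that of P2ry12 without any 1 of 5 (adjusted p up to 0.108) and that of Sema6d without MHCII+CD11c- replicate 1 (adjusted p = 0.0657).

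Among the leading lower genes with counts in both subsets, the largest differences were those of MHC class II. Its protein was gated, so the size of these differences describes the gate. Ngp and Ltf, named below, had no count in LYVE1+CX3CR1+ libraries. Their fitted log2 values of -11.8 and -11.3 were larger in size but depend on the prior count. H2-Aa (chromosome 17, 34282744 to 34287823) stood at 3.37, 3.13 and 2.69 CPM in LYVE1+CX3CR1+ libraries and at 2956, 2828 and 3067 CPM in the others. H2-Eb1 stood at 0, 5.64 and 3.23 CPM against 2680, 2428 and 2516 CPM, and Cd74, the invariant chain, at 22.9, 9.40 and 30.2 CPM against 9794, 9264 and 9161 CPM. The microRNA symbol Mir5107 lies within Cd74 and is taken to share its reads. Class II RNA thus made up 0.00404% to 0.00583% of the counts of LYVE1+CX3CR1+ libraries and 1.87% to 1.97% of the counts of the others. Genes of the pathway that were not themselves gated moved with them. Ciita, the master regulator of class II transcription, had 6 counts over the 3 LYVE1+CX3CR1+ libraries and 448 over the 3 others, a ratio of 139 (95% exact interval 63.2 to 380 from counting error alone). The peptide-loading genes H2-DMb1, H2-DMb2 and H2-DMa were lower, H2-DMb1 at 16.8, 12.5 and 15.1 CPM against 294, 222 and 248 CPM. In all, 11 of the 23 class II and partner genes tested were lower, with Cd274 and Icosl of the costimulatory ligands among them, while the processing proteases Ctss and Lgmn were higher. The Icosl call was lost without any 1 of 5 libraries (adjusted p up to 0.185).

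The promoters of H2-Aa and H2-Eb1 are shown because both genes were nearly silent in 1 subset, and because they hold the letters CTGATTGG of the Y box, which NF-Y binds upstream of class II genes. Each line gives the 150 bases before the start (RefSeq, GRCm38.p6), with the Y box letters in capitals. H2-Aa lies on the minus strand (chr17:34287824-34287973) with the letters 51 bases before the start, and H2-Eb1 on the plus strand (chr17:34305717-34305866) with the letters 62 bases before it.
H2-Aa promoter: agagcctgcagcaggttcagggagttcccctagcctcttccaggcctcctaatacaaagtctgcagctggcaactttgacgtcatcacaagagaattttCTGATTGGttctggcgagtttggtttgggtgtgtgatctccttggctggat
H2-Eb1 promoter: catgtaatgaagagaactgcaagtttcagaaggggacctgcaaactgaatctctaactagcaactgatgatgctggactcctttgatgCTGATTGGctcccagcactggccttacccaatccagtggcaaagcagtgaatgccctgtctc

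CTGATTGG was searched on both strands within 250 bases before the start. Of 15 tested genes of the class II and partner list with a promoter sequence, 3 held it (20%). These 3, H2-Aa, H2-Eb1 and H2-Oa, were among the 8 of that list called lower that have a promoter sequence. CTGATTGG occurred in 4.43% of all 27025 symbols of the table and in 6.28% of the tested genes. Among genes called lower it occurred in 5.95% of 538, beside that 6.28%. The H2-Oa call was lost without LYVE1+CX3CR1+ replicate 3 (adjusted p = 0.0567).

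Of 30 genes of interstitial and IL-4-associated macrophages tested, 19 were lower in LYVE1+CX3CR1+ cells and 1 higher. The median log2 fold change was -2.63, or -2.93 at the bounds. There, genes with no more than 3 counts in any library of 1 subset were set at the floor of 3 counts. Genes that low in both subsets were left out. Retnla, the secreted IL-4 target RELM-alpha, stood at 203, 76.5 and 107 CPM against 3525, 2144 and 2573 CPM, a 21.4-fold lower level (log2 -4.42 ± 0.43, SE, edgeR adjusted p = 4.78e-08). Mgl2, a galactose-type lectin gene, stood at 14.2, 11.3 and 21.5 CPM against 489, 615 and 589 CPM, and its neighbour Clec10a at 6.06, 13.8 and 14.5 CPM against 206, 362 and 301 CPM. The groups were separated by more than 10-fold in each case. Fcrls, an Fc receptor-like scavenger gene, stood at 61.3, 51.4 and 57.6 CPM against 512, 484 and 380 CPM. Cd209a and Ear2, a lectin and a ribonuclease gene, had 3 counts each over the LYVE1+CX3CR1+ libraries and 175 and 412 counts over the MHCII+CD11c- libraries. The symbols Ear3 and Ear12 had 3 counts each against 408 each, so that reads counted for Ear2 may be shared among them. The log2 fold change of Ear2, -7.81, was between -10.7 and -6.25 when a library was left out. Irf4, a factor needed for IL-4 responses, was 2.08-fold lower. The 1 higher member was Tgm2, a transglutaminase gene that is also used in uptake of dying cells, at 495, 315 and 450 CPM against 123.2, 109 and 151 CPM.

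Of 30 C-type lectin and Siglec genes tested, 21 were lower in LYVE1+CX3CR1+ cells and 2 higher, with a median log2 fold change of -2.20, or -2.09 at the bounds. Among these were the Dcir-family genes Clec4a1, Clec4a2 and Clec4a3, with Clec4a1 at 24.3, 27.6 and 26.4 CPM against 96.5, 130 and 116 CPM. Clec4e, the mycobacterial cord factor receptor Mincle, was 4.17-fold lower. The SIGN-R1 gene Cd209b stood at 0, 1.25 and 2.15 CPM against 27.9, 77.0 and 34.7 CPM. The higher ones were Cd33 and Clec5a, with Clec5a at 159, 145 and 160 CPM against 65.1, 77.0 and 62.3 CPM. Cd22, Siglecg, Siglech and Cd69, also among the lower genes, are known mainly from B cells, plasmacytoid dendritic cells or activated lymphocytes. The calls of Cd33 (adjusted p up to 0.209) and Siglech (adjusted p up to 0.394) were lost without any 1 of at least 4 libraries.

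Chemokine genes were lower without exception among those called, 11 of 21 tested, with none higher and a median log2 fold change of -1.42. Ccl6 stood at 384, 305 and 328 CPM against 1657, 1455 and 1184 CPM and Ccl24, an eotaxin gene induced by IL-4, at 41.1, 45.8 and 40.4 CPM against 160, 207 and 175 CPM. The monocyte attractant Ccl2 stood at 86.9, 140 and 111 CPM against 173, 386 and 284 CPM, and its relative Ccl7 at 39.8, 57.7 and 56.0 CPM against 100, 186 and 127 CPM. Ccl8 had no count in LYVE1+CX3CR1+ libraries against 36.0, 35.5 and 21.5 CPM, at least 16.8-fold lower on a floor of 3 counts a library. Receptors split. Ccr2, the receptor of monocyte recruitment, stood at 29.0, 23.2 and 31.2 CPM against 601, 571 and 527 CPM (log2 -4.34 ± 0.29, SE), whereas Ccr1 was 1.73-fold higher, a call lost whichever library was left out (adjusted p up to 0.148). Ccr7, which guides cells to lymph nodes, had no count in LYVE1+CX3CR1+ libraries and stood at 40.7, 33.0 and 46.0 CPM in the others.

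Many monocyte genes other than Ccr2 belonged to the lower genes too. Of 28 tested, 18 were lower and 1 higher, with a median log2 fold change of -3.73, or -2.22 at the bounds. The median was 0.142 among members with at least 10 counts in every library compared. Summed levels of the list overlapped, at 9990 to 11300 CPM in LYVE1+CX3CR1+ libraries and 8850 to 12600 CPM in the others. Plac8, a gene of Ly6C-high monocytes, stood at 0, 0 and 1.08 CPM against 60.5, 3.67 and 24.5 CPM. Cd52 stood at 6.06, 8.15 and 9.15 CPM against 72.1, 55.0 and 66.4 CPM. The 1 higher member was Vcan, described above as a matrix gene. Chil3, Hp and Cd177 of this list had no count in LYVE1+CX3CR1+ libraries, and neutrophils express them as well. Of 26 dendritic cell genes tested, 13 were lower and 1 higher. Dpp4, a surface peptidase gene of conventional dendritic cells, stood at 0, 1.88 and 2.69 CPM against 15.1, 7.33 and 10.2 CPM, a call lost without replicate 1 of either group (adjusted p up to 0.0622). Flt3, a receptor of dendritic cell precursors, had no count against 5.81, 8.56 and 6.13 CPM, and it stood at 22.1, 44.7 and 70.9 CPM in the untreated MHCII+CD11c+ libraries.

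Markers of other cell types moved with the lower genes. All 13 neutrophil genes tested were lower in LYVE1+CX3CR1+ cells, and their summed level was 20.2 to 29.6 CPM there and 1010 to 2340 CPM in MHCII+CD11c- libraries. The granule genes Ngp, Ltf, Lcn2 and Camp and the alarmin gene S100a8 were at 0 in every LYVE1+CX3CR1+ library. Ngp stood at 591, 171 and 229 CPM in the MHCII+CD11c- libraries, at least 179.5-fold higher than the floor of 3 counts a library. All 8 B cell genes tested were lower as well, with sums of 0.674 to 4.85 CPM against 243 to 350 CPM, and Cd79b, Pax5 and Blk were at 0 in the LYVE1+CX3CR1+ libraries. In the untreated MHCII+CD11c+ libraries the B cell sums were 82.5 to 116 CPM. B cells also carry class II. The part of neutrophil and B cell RNA in the other lower genes, the class II, monocyte, lectin and chemokine receptor genes among them, was not tested. Of 11 mast cell and eosinophil genes tested, 4 were lower (Prg2, Epx, Cpa3 and Hdc), with sums of 6.06 to 55.2 CPM against 23.2 to 1070 CPM. The eosinophil granule genes Prg2 and Epx stood at 679 and 321 CPM in MHCII+CD11c- replicate 1, at 6.11 and 0 CPM in replicate 2 and at 0 in replicate 3. Without MHCII+CD11c- replicate 1 the difference of Prg2 did not pass (adjusted p = 0.488) and Epx had no count left. The calls of the mast cell protease gene Cpa3 and the histamine synthesis gene Hdc were each lost without any 1 of 4 libraries (adjusted p up to 0.165 and 0.467). Fabp4, the only adipocyte gene tested, was lower at 0.674, 0 and 0 CPM against 16.3, 14.7 and 5.11 CPM. Fibroblast sums overlapped (366 to 1040 CPM against 422 to 478 CPM), with Prg4 of LYVE1+CX3CR1+ replicate 1 as the high value. Endothelial sums were 12.4 to 36.4 CPM against 62.3 to 229 CPM and those of T and NK cells 9.69 to 21.9 CPM against 56.2 to 119 CPM, with 2 of 5 and 1 of 3 genes called lower. Erythroid sums spread from 12.1 to 1160 CPM and from 25.7 to 2860 CPM with no gene called. None of the muscle or of the cartilage and bone genes tested was called, and of the Schwann cell list Pmp22 was higher and Egr2, also an activation gene of macrophages, lower.

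**Figure D4:**
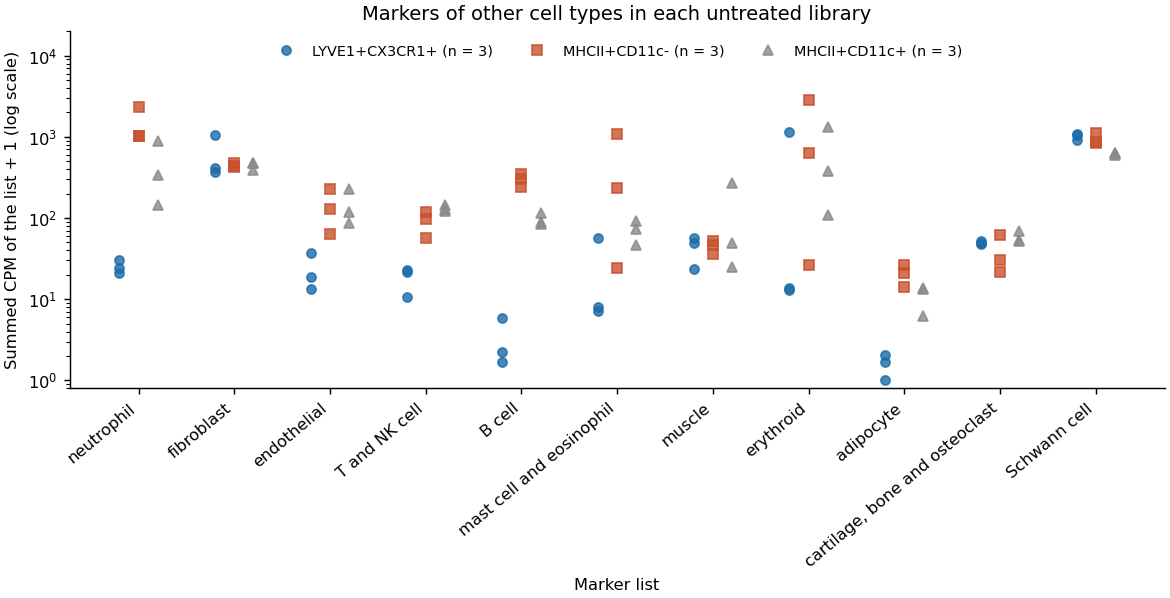
Summed CPM of marker lists of other cell types in each untreated library, plus 1 and on a log scale. Circles are LYVE1+CX3CR1+, squares MHCII+CD11c- and triangles MHCII+CD11c+ libraries, and the neutrophil sums are 20.2 to 29.6 CPM in the circles and 1010 to 2340 CPM in the squares.

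Fc receptors bind the antibody part of immune complexes. Of 27 genes of Fc receptors and their signalling tested, 10 (37%) were called lower in LYVE1+CX3CR1+ cells and 2 (7.41%) higher, beside 7.12% and 4.32% of all genes. The inhibitory receptor gene Fcgr2b stood at 290, 250 and 228 CPM against 388, 361 and 459 CPM, a 1.58-fold lower level. The activating receptor gene Fcgr3 averaged 424 ± 5.85 CPM against 515 ± 59.8 CPM (SD, n = 3), a log2 difference of -0.28 ± 0.14 (SE) that did not pass. Fcgr4 had 4 counts over the LYVE1+CX3CR1+ libraries and 34 over the others, a ratio of 15.8 (95% exact interval 5.63 to 61.3). Syk, the kinase below activating Fc receptors, was 1.46-fold lower, and Fcgrt, the neonatal Fc receptor that recycles IgG, 1.67-fold higher at 963, 827 and 861 CPM against 451, 616 and 518 CPM. Fcmr and Fcer2a, among the lower ones, are B cell genes. The part of B cell and neutrophil RNA in the lower levels of Fcgr2b and Fcgr4 was not tested. The calls of Syk (whichever library was left out, adjusted p up to 0.192), Fcgr2b and Fcer2a (without any 1 of 2 libraries, adjusted p up to 0.0662) were lost in such fits.

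Cytokine and sensor genes showed smaller shares of lower calls than the lectin and chemokine lists, though above that of all genes tested. Of 46 cytokine and receptor genes tested, 9 were lower (19.6%) and 2 higher (4.35%), beside 7.12% and 4.32% of all genes. The lower shares of the pattern recognition, interferon-stimulated and class I lists were 17.6%, 25% and 25%. Il1b, which codes for interleukin-1 beta, stood at 23.6, 15 and 42.0 CPM against 159, 180 and 105 CPM, and its antagonist Il1rn at 18.2, 7.52 and 14 CPM against 69.8, 59.9 and 47.0 CPM. Agonist and antagonist thus stood lower together. Of 34 pattern recognition genes, 6 were lower, with the DNA sensor Tlr9 at 9.43, 14.4 and 17.8 CPM against 86.0, 109 and 84.8 CPM and the inflammasome gene Nlrp3 2.07-fold lower, and 1 (Tlr13) was higher. Of 56 interferon-stimulated genes 14 were lower and none higher, with a median log2 fold change of -0.72. Isg15 stood at 1.35, 6.90 and 2.69 CPM against 17.4, 18.3 and 16.3 CPM. Class I genes followed in part, 6 lower of 24, led by Nlrc5, the class I transactivator, at 15.5, 16.3 and 17.2 CPM against 61.6, 67.2 and 96.0 CPM, while B2m averaged 1375 ± 154 CPM against 1257 ± 170 CPM (SD, n = 3). The Tlr13 call was lost without any 1 of 4 libraries (adjusted p up to 0.106).

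Of 83 transcription factor genes tested, 4 were higher in LYVE1+CX3CR1+ cells (4.82%) and 13 lower (15.7%). Of all genes tested 4.32% were higher and 7.12% lower, so the share of higher factors was near that of all genes. Bhlhe40, a factor of resident macrophage proliferation, stood at 709, 629 and 788 CPM against 407, 222 and 290 CPM, and the clock repressor gene Nr1d1 at 74.8, 78.4 and 76.5 CPM against 15.1, 18.3 and 43.9 CPM. Id3 and Klf3 completed the higher ones. The lower ones included Runx3, Batf3 and Irf4, known from dendritic cells and lymphocytes, and the interferon factors Irf1 and Irf7. The calls of Nr1d1, Id3, Klf3 and Irf7 were each lost without any 1 of at least 3 libraries (adjusted p up to 0.220), and that of Batf3 without MHCII+CD11c- replicate 1 (adjusted p = 0.0526). Of 43 immediate early and dissociation response genes, 15 were lower and 1 higher, with Btg2 at 497, 556 and 586 CPM against 1152, 1160 and 970 CPM and Ier5 at 309, 355 and 421 CPM against 672, 1010 and 690 CPM. Fos averaged 3434 ± 125 CPM against 4191 ± 72.2 CPM (SD, n = 3) and did not pass. Of 47 cell cycle genes 10 were lower and none higher, with the D cyclin gene Ccnd1 at 22.2, 32.6 and 17.8 CPM against 69.8, 48.9 and 82.7 CPM.

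Among the remaining lists, integrin and adhesion genes gave 6 higher and 12 lower of 42, the higher ones with Itga9, Itga5, Cd9 and Fermt2 beside Itgav and Itgb5. The Fermt2 call was lost without MHCII+CD11c- replicate 2 (adjusted p = 0.0618). Proteases gave 4 higher and 7 lower of 30, and Mmp9, a gelatinase that neutrophils also store, stood at 4.72, 8.15 and 7.54 CPM against 234, 163 and 145 CPM. Iron and haem genes gave 2 higher and 5 lower of 25, with the transferrin receptor gene Tfrc at 47.8, 43.3 and 40.4 CPM against 119, 121 and 125 CPM. Coagulation genes gave 5 higher and 1 lower of 23. Of 61 solute and water transport genes 5 were higher (8.2%) and 3 lower (4.92%), beside 4.32% and 7.12% of all genes tested. The lower ones, a share below that of all genes, held the glucose transporter genes Slc2a1 and Slc2a3. The calls of these 2 were each lost without any 1 of at least 3 libraries (adjusted p up to 0.177).

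The libraries taken 8 h after ICs repeated the comparison in pools that share no mouse with the untreated ones, 3 of each subset. There 1031 genes were called, 350 higher (3.32%) and 681 lower (6.45%) in LYVE1+CX3CR1+ cells. The MHCII+CD11c- libraries after ICs were shallow, at 245903 to 973951 counts, and the number of calls fell to 669 without LYVE1+CX3CR1+ replicate 1, to 609 without replicate 2 and to 460 when only these 6 libraries were fitted. Of the 456 genes higher without treatment, 182 (39.9%) were called higher again, which is 52% of the 350, and 440 (96.5%) had the same sign. Of the 751 lower genes, 432 (57.5%) were called lower again, which is 63.4% of the 681, and 718 (95.6%) had the same sign. No gene was called in opposite directions. The share of all genes tested that kept their sign was not counted. The median log2 fold change of the higher genes was 1.06 without treatment and 0.754 after ICs, and that of the lower genes -1.85 and -1.43, where the genes were chosen on the untreated values.

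**Figure D5:**
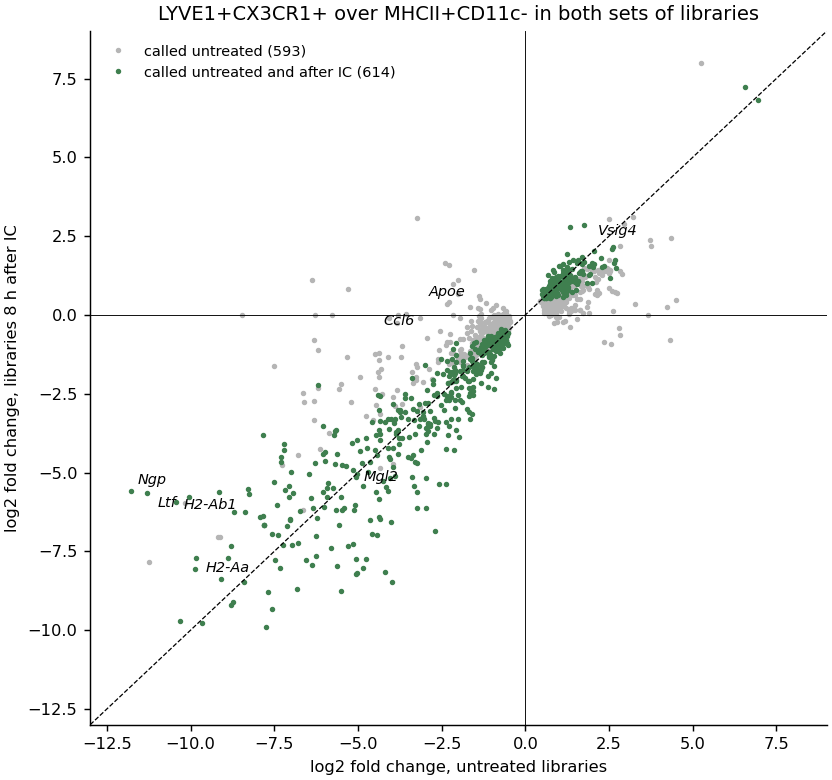
Log2 fold change of LYVE1+CX3CR1+ over MHCII+CD11c- macrophages without treatment (horizontal axis) and in the libraries taken 8 h after ICs (vertical axis), for the 1207 genes called without treatment. Green points are the 614 genes also called after ICs, grey points the others, and the dashed line marks equal values.

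Single genes held their place after ICs to different degrees. Vsig4, Timp2 and Ctsd were higher again, by log2 values of 2.09, 1.11 and 1.31. Mgl2, Retnla and Ccr2 were lower again, by -4.92, -4.45 and -3.97. Itgb5, Pmepa1 and Tgfbr1 of the TGF-beta list were called again at 1.53, 1.60 and 0.82, the last not without MHCII+CD11c- replicate 3 or LYVE1+CX3CR1+ replicate 3 of the IC libraries (adjusted p up to 0.0516). Ccl6 was called again at -0.88, beside -2.08 without treatment, a call lost when only the 6 IC libraries of both subsets were fitted (adjusted p = 0.0540). Apoe and Mrc1 had values of -0.20 and -0.15 that did not pass and were above 0 without MHCII+CD11c- replicate 1 of the IC libraries (0.25 and 0.0091). Without replicate 2 Apoe passed, at -0.62.

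Whether the difference between the subsets itself changed with ICs was tested as an interaction. No gene (0%) passed edgeR's quasi-likelihood test, with 688 genes at an unadjusted p under 0.05, and 12 genes passed by DESeq2. Without the filter on low counts 20 genes passed. Ccl6 was among the genes that passed by DESeq2 (interaction of 1.18, adjusted p = 0.0431) and without the filter (1.22, adjusted p = 0.000496), and Apoe passed without the filter (0.963, adjusted p = 0.0164). For H2-Ab1, log2 -7.83 without treatment and -6.38 after ICs, the interaction was 1.45 (edgeR adjusted p = 0.107). It passed by DESeq2 (adjusted p = 5.81e-05), without the filter (adjusted p = 3.73e-05), with a surrogate variable in the fit (adjusted p = 0.0278) and without LYVE1+CX3CR1+ replicate 1 or MHCII+CD11c- replicate 2 of the IC libraries (adjusted p = 0.00147 and 0.0381).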

How the data were processed

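The authors sorted macrophages from collagenase-digested knee synovium, prepared stranded total RNA libraries from 5 ng of RNA and deposited raw read counts per gene symbol. Per the labels and the methods, reads were trimmed with Trim Galore, checked with FastQC, aligned with HISAT2 to mm10 and counted with featureCounts of Rsubread. The strand setting, the annotation and the treatment of multi-mapping reads were not given in the sources used here, so overlapping gene models may share reads. The counts held no mitochondrial genes.

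From the deposited counts, all 18 libraries in 6 groups were fitted with edgeR 4.0.16 in R 4.3.3 (TMM scaling, filterByExpr with a minimum count of 10 and total of 15, which left 10550 of 24421 symbols). Contrasts used the quasi-likelihood test with Benjamini-Hochberg adjustment at 0.05, and SE is the size of the log2 fold change over the square root of F. The code was tested on simulated data. DESeq2 1.42.0 and sva 3.50.0 served as alternatives. Libraries of a group differed by more than sampling noise (chi-square per gene of at least 3.43), and since pools rather than single mice were replicated, p-values measure the spread between pools. Intervals and floors of 3 counts cover counting error only.

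Named genes were the sort and cell type markers, the 20 largest folds in each direction (mean log2 CPM of at least 4, groups not overlapping), the 10 with the highest CPM at 2-fold or more, and members of gene lists: those called with the largest folds and well-known members. Cpa3, Hdc and Fabp4 were named after their values were seen. After ICs only genes already described without treatment were named, although the rule also took the 5 largest folds there. The comparison, the lists and the members were chosen with earlier results of these data known. Gene positions and promoters came from RefSeq (GRCm38.p6), where 95% of symbols matched. Some genes that the rule would name are not reported here.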

Additional observations from a re-analysis of the deposited data

How the results depend on the processing

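Without treatment, the number of genes called stayed within 1.5 times of 1207 under DESeq2 size factors, DESeq2's Wald test (1434), no filter, at least 10 counts in every library (866), fits of 6 or 9 libraries, a surrogate variable and leaving out each library (805 to 1018). It fell to 524 when tested against a fold of 1.5, as that test's construction entails. With at least 10 counts in every library the split was 397 higher and 469 lower, and with the 6 libraries alone 527 and 693, beside 456 and 751. After ICs the count moved from 1031 to 658 with at least 10 counts in every library, 460 with 6 libraries and 409 against a fold of 1.5, and to 609 to 1045 when a library was left out, lowest without LYVE1+CX3CR1+ replicates 1 and 2; the cause was not tested. The interaction count was 0, with 12 by DESeq2, 20 without the filter, 1 with a surrogate variable and 0 to 1 when a library was left out. Pairing by replicate number was checked between LYVE1+CX3CR1+ and MHCII+CD11c- libraries only. Correlations of same-numbered deviations were -0.0725 to 0.0267 untreated and 0.0307 to 0.0479 after ICs. Those of differently numbered ones were -0.0781 to 0.0803 and -0.0441 to 0.00835. Taken over 8836 genes, they could miss a shift confined to part of the genes. Class I sums of untreated replicates 1, 2 and 3 kept the same order in all 3 subsets. They were 8640, 7510 and 8160 CPM (LYVE1+CX3CR1+), 9650, 7990 and 9190 CPM (MHCII+CD11c-) and 9910, 8450 and 8910 CPM (MHCII+CD11c+). Pan-macrophage sums kept no such order. Whether same-numbered subsets were sorted from the same mice cannot be decided from these values, and the main test took the libraries as independent. A replicate block gave 1251, 1056 and 0 calls. Of 1919 values of 194 named genes, 1743 kept direction and side, 173 fell short of the threshold, 2 newly passed it and 1 lost its sign, Epx, at 0 without MHCII+CD11c- replicate 1 and as low as -10.77 without another. After ICs, Apoe (-0.62 to 0.25) and Mrc1 (-0.24 to 0.0091) changed sign when a library was left out, in both cases without MHCII+CD11c- replicate 1. With at least 10 counts in every library, list medians were -1.42 (interstitial), -0.93 (lectins), -0.76 (chemokines) and 0.142 (monocyte), but this filter drops the genes with few or no counts in LYVE1+CX3CR1+ cells, so the shift follows from its construction. Of 411 medians of 42 gene lists under the alternative settings, 297 stayed within the spread between libraries. The other 114 moved beyond it, and 45 of the 411 did not keep their sign. The monocyte median of -3.73 was -2.09 with the 6 libraries alone and -4.19 to -2.94 when a library was left out. That of the lining list, 0.471, was 0.705 with the 6 libraries alone. The fold of genes with no more than 3 counts in any library of a subset could not be measured at this depth.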
